A study of Mus musculus with 6 samples.

Results

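The genes described here encode the NF-κB transcription factors and proteins that inhibit or otherwise regulate them. They were chosen by name and were all present: Nfkb1, Nfkb2, Rel, Rela and Relb for the subunits, and Nfkbia, Nfkbie, Nfkbiz, Bcl3 and Tnfaip3 for the inhibitors and feedback genes, which are 10 of 13008 genes in the deposited table. RNA-seq was performed on macrophages (MPs) sorted from skeletal muscle of C57BL/6J mice on day 5 after cardiotoxin injury, in 3 Control and 3 Cripto KO samples. Mice were 3 months old and are labelled male. Sorted cells were F4/80+ and Ly6CLow according to the series text, and the methods add sorting on a green reporter.

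Cripto KO mice are labelled Tg:LysMCre::Cripto-/-. In them the Cre recombinase is driven from the lysozyme 2 (Lyz2) locus, so that deletion of Cripto, a membrane-anchored co-receptor of the TGFβ family, takes place across the myeloid lineage and not in macrophages alone. Control mice are labelled wild type, whereas the methods describe controls that carry LysMCre and the R26mTmG reporter without the floxed Cripto alleles. Nothing in the labels says how many animals went into a sample, so the p-values below measure the spread between these samples. The samples are bulk, and fewer cells of a type cannot be told apart from less RNA per cell.

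NF-κB is a family of dimeric transcription factors that drives much of the inflammatory program of MPs. In resting cells the dimers are held in the cytoplasm by IκB proteins, and signals from Toll-like, TNF and IL-1 receptors activate the IκB kinase (IKK) complex, which marks IκB for destruction and lets the dimers enter the nucleus. Several genes of the system are themselves switched on by NF-κB, among them the IκB gene Nfkbia and the ubiquitin-editing enzyme gene Tnfaip3, so that their mRNA follows the activity of the pathway and closes a negative feedback loop.

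The promoters of some of these genes are shown because NF-κB is known to act on genes of its own system through κB sites. The sequences were taken from RefSeq windows on GRCm38.p6 that run from 250 bases before to 50 bases after a gene start. Windows were found for 7 of the 10 genes (Nfkb2, Rel, Rela, Nfkbia, Nfkbie, Bcl3 and Tnfaip3). The classical κB consensus motif was searched on both strands, and overlapping matches were merged. Capitals mark the motif in each stretch, read 5′ to 3′ on the strand of the gene.
Nfkbia, chr12:55492648-55492701, minus strand: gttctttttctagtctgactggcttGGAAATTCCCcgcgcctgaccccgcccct
Tnfaip3, chr10:19015411-19015560, minus strand: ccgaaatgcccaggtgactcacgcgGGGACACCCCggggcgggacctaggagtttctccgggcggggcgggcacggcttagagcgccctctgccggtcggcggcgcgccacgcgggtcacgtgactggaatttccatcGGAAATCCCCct
Nfkbie, chr17:45555569-45555628, plus strand: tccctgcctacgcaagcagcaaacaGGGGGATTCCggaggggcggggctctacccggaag
Bcl3, chr7:19822744-19822778, minus strand: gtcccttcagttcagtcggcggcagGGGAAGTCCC
Rel, chr11:23771026-23771086, minus strand: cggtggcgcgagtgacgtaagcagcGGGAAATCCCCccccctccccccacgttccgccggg

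In Nfkbia the motif begins 29 bases before the start. In Tnfaip3 a pair of motifs begins 125 and 12 bases before the start, while a second RefSeq window of that gene (chr10:19011914-19012213) holds no match, and in Nfkbie the motif begins 106 bases before it. In Rel 2 overlapping matches begin 92 bases before the start, while in Bcl3 the match lies just inside the transcript, at bases 3 to 12. Nfkb2 has 3 RefSeq windows and each holds at least 1 match, for example GGGAATTCCCC at 39 bases before the start of the most upstream one. The Rela window holds no match, which says only that these letters are not in this window. Across the 7 genes, 6 carried the motif, compared with 9.55% of the 27025 genes that have a window and 12.2% of the 9537 genes that also have values in these MPs. A gene counted if any of its windows held a match. Among known NF-κB target genes of MPs with a window, 8 of 26 (30.8%) carried it. The 7 genes were chosen as parts of the NF-κB system, so these shares are a description and not a test. A match is a string of letters and not a measured binding site.

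Before the comparison, 3 facts about the libraries bear on it. Recovered reads numbered 12688968 to 14141773 in Control and 14633880 to 15659847 in Cripto KO samples, and each of the 10 genes had at least 709 reads in every sample. Control 1 had a normalized value of 171 for Xist, the RNA expressed from the inactive X chromosome, against 0.114 to 0.885 in the other 5 samples, although all samples are labelled male. Control 2 had a value of 11066 for Lyz2, the lysozyme gene that carries the Cre, whereas Control 1 (25.2) and Control 3 (21.4) had values like those of the Cripto KO samples (21.2 to 28.3). All 3 Control samples carry the same genotype label, so the labels give neither difference, and the counts below are also given without a sample where that moves them by more than 1.5 times. The deleted gene itself was not analysed here.

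Macrophage identity was measured with 8 markers, all of them detected, whose summed normalized value was 6122 to 6599 in Control and 5889 to 6488 in Cripto KO samples. Neutrophil markers summed to 2.08 to 2.31 and 2.19 to 4.45, with 3 of 7 (S100a9, Retnlg and Camp) at 3 reads or fewer in every sample. Normalized values below are reads per 1000000 of the scaled library total, as the authors deposited them.

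No NF-κB subunit or feedback gene passed the test between Control and Cripto KO MPs after correction over all genes. The gene that came closest was Nfkbiz, which encodes the nuclear IκB protein IκBζ and was 1.23-fold higher in Control. The other 9 genes had estimated differences of -0.05 to 0.13 on the log2 scale (Control over Cripto KO), and their groups overlapped. With limma, 0 of the 10 genes had an adjusted p-value under 0.05, where 17 of 13008 genes (0.131%) did, and edgeR and DESeq2 likewise called 0 of 10. At an unadjusted p under 0.05, 1 of the 10 genes passed, against 8.59% of all genes in either direction and 4.60% in the direction of Control.

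**Figure D1:**
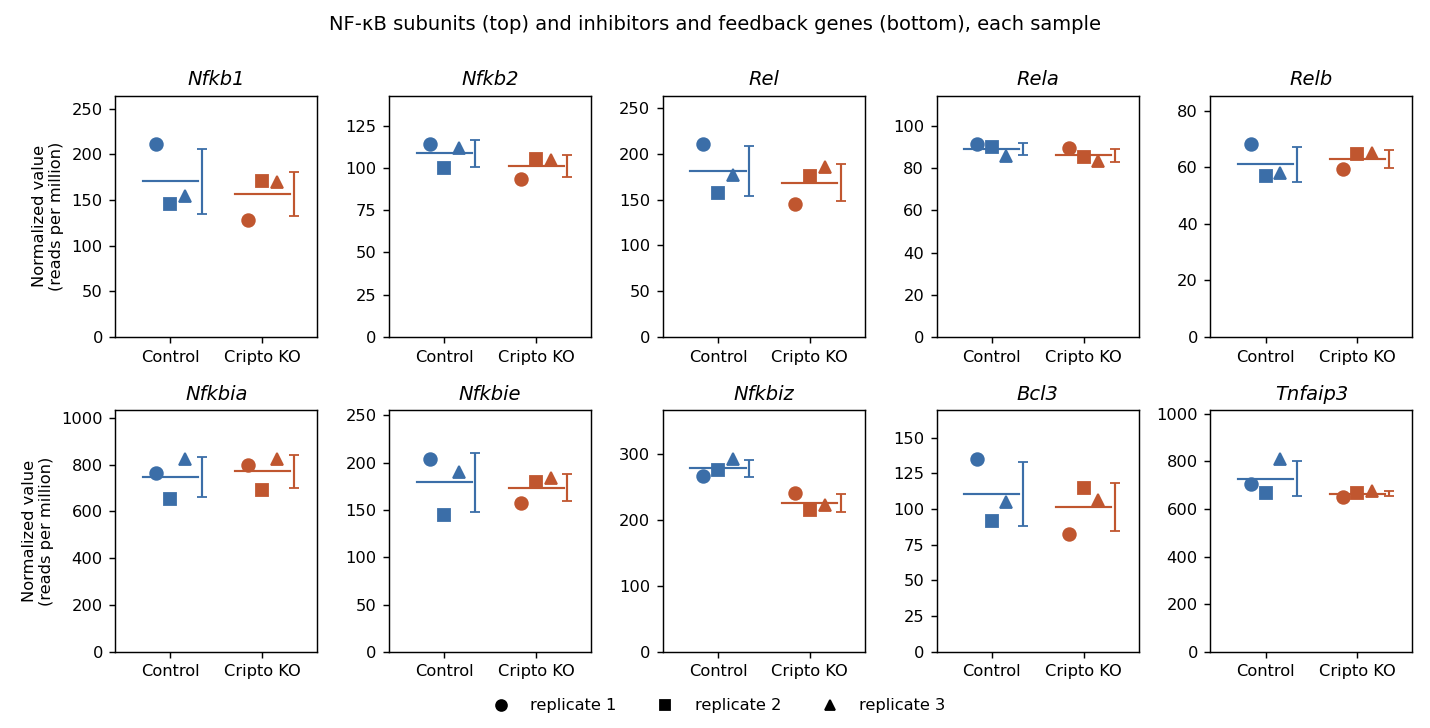
Normalized values (reads per 1000000, linear axes from 0) of the 10 genes in 3 Control (blue) and 3 Cripto KO (orange) samples, with symbols for the replicate number, lines for means and bars for SD (n = 3). Nfkbiz is the gene whose groups do not overlap, at 267 to 293 in Control and 215 to 242 in Cripto KO samples.

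The subunits that carry a transactivation domain come from Rela, Rel and Relb. Rela (chr19:5637483-5648130, GRCm38) encodes p65, the main activating subunit of the classical pathway. Its normalized values were 91.5, 90.2 and 86.0 in Control MPs and 89.4, 85.5 and 83.3 in Cripto KO MPs. The groups overlapped and the values lay closer together than those of any other gene of the set, with 1.10-fold between the highest and the lowest sample. Rela differed by 0.05 on the log2 scale (SE 0.07, adjusted p = 0.859, limma).

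Rel (chr11:23736847-23770970) encodes c-Rel, an activating subunit abundant in cells of the immune system. Its values were 211, 157 and 177 in Control MPs and 146, 175 and 185 in Cripto KO MPs. Control 1 was the highest and Cripto KO 1 the lowest sample, and the remaining 4 were mixed between the groups. The difference was 0.10 on the log2 scale, with a 95% interval of -0.17 to 0.38. Relb (chr7:19606217-19629438) encodes the activating subunit of the alternative pathway, where it pairs with the product of Nfkb2. Values of Relb were 68.3, 57.0 and 57.9 in Control MPs and 59.3, 64.6 and 65.0 in Cripto KO MPs, so that Control 1 lay above and the other Control samples below every Cripto KO sample. The log2 fold change of Relb was -0.05, with a 95% interval of -0.25 to 0.15.

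Nfkb1 and Nfkb2 encode the precursors p105 and p100, which act as inhibitors until they are processed to the DNA-binding subunits p50 and p52. Nfkb1 lies at chr3:135584655-135691547 and had values of 211, 145 and 154 in Control MPs and 129, 171 and 169 in Cripto KO MPs. It showed the widest spread of the 10 genes, 1.65-fold from the lowest to the highest sample, with Cripto KO 1 at one end and Control 1 at the other. Nfkb1 differed by 0.11 on the log2 scale (SE 0.15, adjusted p = 0.871, limma). Nfkb2 lies at chr19:46304320-46312385 and had values of 114, 99.6 and 112 in Control MPs and 93.6, 105 and 104 in Cripto KO MPs. Here too Control 1 was highest and Cripto KO 1 lowest, although the spread was narrower, and the log2 fold change was 0.10 (95% interval -0.08 to 0.28). Of 4584 exonic bases of Nfkb2, 299 overlap Psd on the other strand, and the sources used here do not say whether the counting used strand.

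**Figure D2:**
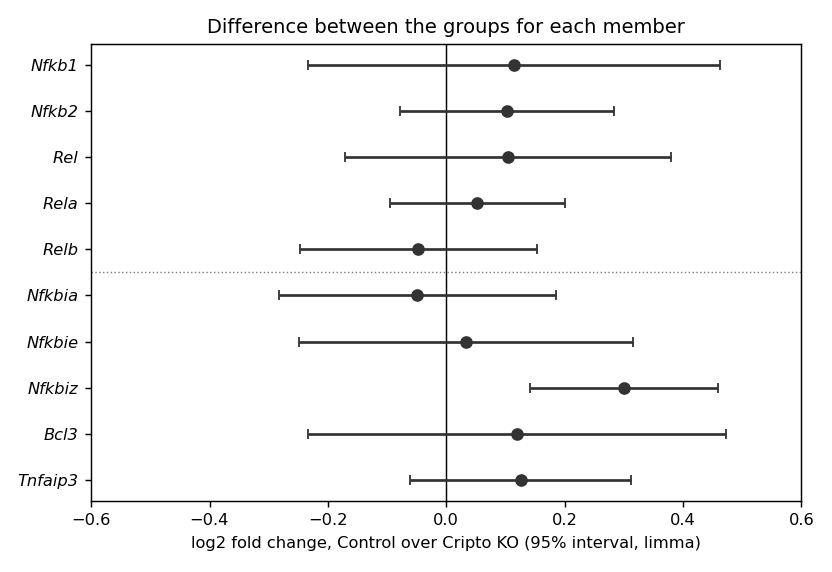
Log2 fold change of Control over Cripto KO for each gene (points) with its 95% interval from limma (bars), subunits above and feedback genes below the dotted line. The interval of Nfkbiz, 0.14 to 0.46, lies above 0, and those of the other 9 genes include 0.

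Nfkbia (chr12:55489410-55492647) encodes IκBα, the inhibitor that retains the p65 and p50 dimer in the cytoplasm and is rebuilt from new mRNA after each wave of activation. Its values were 763, 652 and 824 in Control MPs and 796, 691 and 825 in Cripto KO MPs. The groups covered nearly the same range, and in both of them the sample numbered 2 was the lowest. The log2 fold change was -0.05, and the 95% interval of -0.28 to 0.18 corresponds to 0.822-fold to 1.14-fold. Nfkbie (chr17:45555703-45563169) encodes IκBε, another cytoplasmic inhibitor, and had values of 204, 144 and 190 in Control MPs and 158, 180 and 184 in Cripto KO MPs. All 3 Cripto KO samples lay within the range of Control, and the log2 fold change was 0.03 (95% interval -0.25 to 0.32).

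Tnfaip3 (chr10:19000910-19015657) encodes A20, which edits ubiquitin chains on signaling proteins upstream of IKK. Its values were 706, 666 and 812 in Control MPs and 652, 669 and 675 in Cripto KO MPs. The Cripto KO samples lay close together (665 ± 12.3, SD, n = 3), the Control samples did not (728 ± 75.1, SD, n = 3), and Control 2 lay among the Cripto KO samples. The log2 fold change of Tnfaip3 was 0.13 (SE 0.08, adjusted p = 0.715, limma). Bcl3 (chr7:19808462-19822770) encodes a nuclear IκB protein that binds p50 and p52 homodimers. Its values were 135, 91.7 and 105 in Control MPs and 82.8, 115 and 106 in Cripto KO MPs, again with Control 1 highest and Cripto KO 1 lowest. The log2 fold change of Bcl3 was 0.12 (95% interval -0.23 to 0.47), and 161 of its 2475 exonic bases are shared with Gm16175 on the other strand.

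Nfkbiz (chr16:55811375-55838899) encodes IκBζ, a nuclear IκB protein that is known as a co-activator of a set of secondary inflammatory genes rather than as a plain inhibitor. Its values were 267, 276 and 293 in Control MPs and 242, 215 and 223 in Cripto KO MPs, from 3037 to 3808 reads. Every Control sample lay above every Cripto KO sample, which was the case for 1 of the 10 genes, against 14.5% of all genes in either direction and 8.02% in the direction of Control. The means were 279 ± 13.4 and 226 ± 13.8 (SD, n = 3). The log2 fold change was 0.30 (SE 0.07), which is 1.23-fold with a 95% interval of 1.10 to 1.37. With limma the unadjusted p of 0.00204 ranked 81st of 13008 genes, and the adjusted p = 0.327 missed the threshold. An exact permutation test over the 6 samples cannot go below p = 0.1 with 3 against 3. Nfkbiz kept its sign without Control 1 (log2 fold change 0.33) and without Control 2 (0.31).

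Set against Nfkbia in the same sample, which removes any scaling of the library, the value of Nfkbiz was 0.350 to 0.423 of that of Nfkbia in Control and 0.270 to 0.311 in Cripto KO samples. The ratio of Nfkbiz to Tnfaip3 was 0.361 to 0.414 in Control and 0.322 to 0.371 in Cripto KO samples, and here the groups overlapped. Relb relative to Nfkb2, the partners of the alternative pathway, was 0.518 to 0.598 in Control and 0.614 to 0.634 in Cripto KO samples, without overlap. Of 6 such ratios computed, these of Nfkbiz to Nfkbia and of Relb to Nfkb2 were the ones whose groups did not overlap. No test was run on them, and the share over other pairs of genes was not computed. Among single genes 14.5% had groups that did not overlap. Nfkbiz is one of these by itself, whereas the groups overlapped for Relb and for Nfkb2 taken singly. Nfkb1 relative to Rel, the pair of subunits with the widest swings between samples, stayed between 0.870 and 1.00 over all 6 samples.

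Several of the 10 genes were high or low in the same samples, and samples of the same group differed in this. Control 1 held the highest value in 7 of the 10 genes (Nfkb1, Nfkb2, Rel, Rela, Relb, Nfkbie and Bcl3), that is in all 5 subunits, whereas it held the highest value in 21.3% of the 11960 genes with a mean of at least 1. Cripto KO 1 held the lowest value in 5 of them (Nfkb1, Nfkb2, Rel, Bcl3 and Tnfaip3), against 21.0% of the 11960 genes, and Control 2 was lowest in Relb, Nfkbia and Nfkbie. The other genes had other orders. Control 3 was highest in Nfkbiz and Tnfaip3 and Cripto KO 3 in Nfkbia, while Cripto KO 2 was lowest in Nfkbiz and Cripto KO 3 in Rela. On the log2 scale the median deviation of the 10 genes from their own means was 0.13 in Control 1, -0.13 in Control 2 and 0.06 in Control 3. It was -0.12, 0.01 and 0.05 in Cripto KO 1, 2 and 3. Control 1 thus had the highest median, and the lowest, nearly equal, were those of Control 2 in the same group and of Cripto KO 1 in the other. Control 1 and Control 2 are the libraries that stand apart in Xist and in Lyz2. The part of either in the NF-κB values was not tested.

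**Figure D3:**
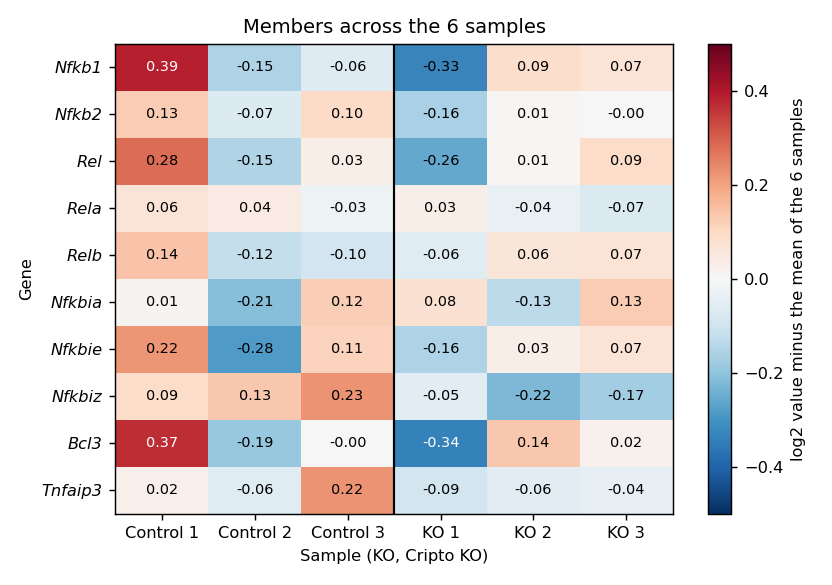
Deviation of each gene in each sample from its mean over the 6 samples, on the log2 scale (color, with the value printed in each cell), Control to the left of the line and Cripto KO to the right. Control 1 is above the mean in all 10 genes, by up to 0.39 in Nfkb1, and Cripto KO 1 is below it in 8 of 10.

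This spread sets what the median over the set can show. The median log2 fold change of the 10 genes was 0.10, with 8 genes above 0 and 2 below, beside a median of 0.01 over all 13008 genes. Without Control 1 the median of the 10 genes was -0.02, and without Cripto KO 1 it was -0.0096. Without Control 2 it was 0.19. The median size of the difference, whatever its sign, was 0.10 in the set and 0.12 over all genes. The latter include genes with few reads, and the comparison was not matched for level. Nfkb1 changed sign without Control 1 (-0.05) or without Cripto KO 1 (-0.02), as did Bcl3 (-0.04 and -0.02), and Rel did so without Control 1 (-0.0095).

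Levels were compared between genes after division by the length of the annotated principal transcript. Which transcripts these MPs express was not examined, and the order below depends on that length. The level per kilobase of the principal transcript was highest for Nfkbia, at 481 ± 45.7 (SD, n = 6 samples), followed by Tnfaip3 at 158 ± 13.4 and Nfkbie at 72.5 ± 9.02. No sample of the lower gene reached any sample of the higher one in either step down to Nfkbie. Nfkbiz (61.4 ± 7.55), Bcl3 (57.3 ± 9.93) and Nfkb1 (39.7 ± 6.90) followed, and from Nfkbie downwards each neighbor in the order overlapped the next in range. Nfkb2 (33.4 ± 2.43), Rela (32.3 ± 1.18), Relb (28.1 ± 2.06) and Rel (23.5 ± 3.06) made up the lower end. Rel, which had more reads than Rela, ranked below it per kilobase, since its principal transcript has 7466 bases and that of Rela has 2716. All 5 feedback genes had a higher mean per kilobase than all 5 subunits.

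**Figure D4:**
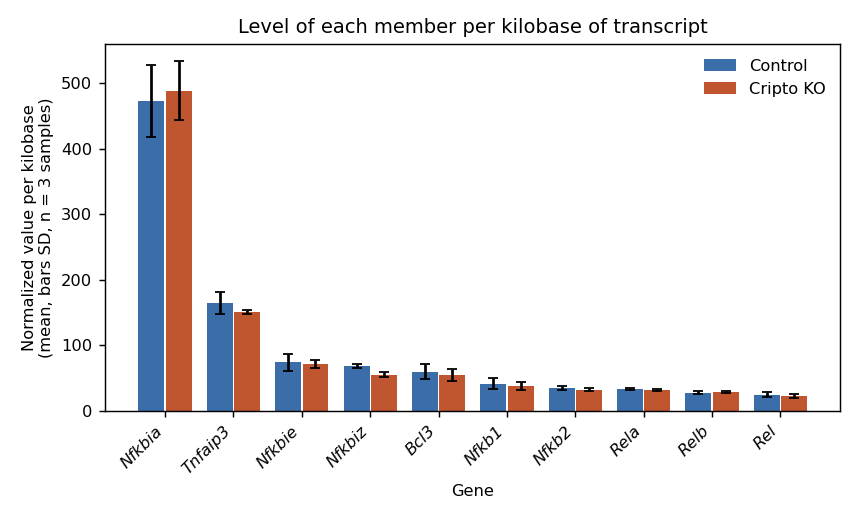
Normalized value per kilobase of the principal transcript (linear axis from 0) for each gene, as means with SD bars over 3 Control (blue) and 3 Cripto KO (orange) samples. Nfkbia and Tnfaip3 stand above the rest in both groups, and the subunits make up the lower end.

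The wider pathway was described with lists of genes ordered by their role. Of 16 receptors and ligands found in the table, 2 (12.5%) passed an unadjusted p under 0.05, against 8.59% of all genes. Both were higher in Control, and 0 passed after adjustment with limma, edgeR or DESeq2. At the unadjusted threshold the number was 4 without Control 2 and 1 without Control 3, Cripto KO 1 or Cripto KO 3. These 2 genes were Tlr2, the receptor of bacterial lipoproteins (log2 fold change 0.26, 532 to 583 in Control and 437 to 517 in Cripto KO samples), and Il1r1, the signaling receptor of IL-1, at values of 1.48 to 3.13 only. The next by p was Tnfrsf11a, which encodes RANK (-0.19). The ligand gene Tnf was at 172 ± 16.6 in Control and 172 ± 12.0 in Cripto KO samples (SD, n = 3). Il1b, which encodes IL-1β, was at 532 ± 99.6 and 489 ± 68.3 (SD, n = 3), with overlapping groups.

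Of 26 genes of the IKK complex and the kinases and adaptors upstream of it, 4 (15.4%) passed an unadjusted p under 0.05. Over all genes 8.59% did. Of the 4, 3 were higher in Control and 1 in Cripto KO samples, and the median log2 fold change of the list was 0.02. The 4 calls became 1 without Control 1 or Control 3 and 2 without Cripto KO 1 or Cripto KO 3. The subunits of IKK itself differed little: log2 fold changes were -0.08 for Chuk (IKKα), 0.03 for Ikbkb (IKKβ) and 0.03 for Ikbkg (the scaffold NEMO), with adjusted p-values of 0.848 to 0.970 in limma. Ikbke, which encodes the IKK-related kinase IKKε, was the 1 gene higher in Cripto KO samples (-0.41, 95% interval -0.73 to -0.09), although Control 1 at 57.2 lay within the Cripto KO range of 56.2 to 66.0. Ripk1, a kinase of TNF receptor signaling, and Map3k8, a kinase held by p105, both had a log2 fold change of 0.22, and neither passed after adjustment.

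Among 15 further inhibitors of the pathway, the median log2 fold change was 0.03. At an unadjusted p under 0.05, 1 (6.67%) passed, against 8.59% of all genes (2 passed without Control 1 or Control 2, and 3 without Cripto KO 2). With all samples this gene was Tax1bp1, an adaptor of A20, at 0.22 (95% interval 0.03 to 0.40). Traf3, an adaptor that restrains the alternative pathway, had a log2 fold change of 0.25 with an interval that included 0 (-0.01 to 0.52). Nfkbid, which encodes the nuclear protein IκBNS and is a relative of Nfkbiz and Bcl3, had one of -0.17, in the opposite direction to Nfkbiz, with an interval of -0.35 to 0.01. Nfkbib (IκBβ) was at 0.11, Tnip1 (the A20 partner ABIN1) at 0.0030 and the deubiquitinase gene Cyld at 0.15, each with an interval that included 0.

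The list downstream of the pathway holds genes that NF-κB is known to switch on in MPs. Of 33 target genes in the table, 8 passed an unadjusted p under 0.05 and all 8 were higher in Control. That is 24.2% of the list against the 4.60% of all genes given above. The list was chosen with earlier results of these data known, so the excess is a description and not a test. After adjustment, 0 of 33 passed with limma or edgeR and 2 (Ptgs2 and Bcl2a1d) with DESeq2. The median log2 fold change of the 33 genes was 0.12, and 27 were above 0 and 6 below. The groups did not overlap in 8, all higher in Control, against 8.02% of all genes in that direction. Tnf and Il1b, as well as Il1a, Traf1 and Birc3, were also in the lists above.

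Ptgs2, which encodes the inducible prostaglandin synthase COX-2, had the smallest p of the targets. Its values were 331, 317 and 324 in Control MPs and 252, 243 and 246 in Cripto KO MPs, which makes a log2 fold change of 0.39 (95% interval 0.26 to 0.52) with groups that were narrow and far apart. Its adjusted p = 0.0571 in limma was just above the threshold. Over the alternatives that kept all samples, the adjusted p-value of Ptgs2 ran from 0.000429 (DESeq2) and 0.0369 (limma with the robust option) through 0.0871 (edgeR) to 0.336 (limma without a variance trend), and with 1 sample left out it was 0.0668 to 0.300. Bcl2a1d, a survival gene, differed by 0.42 on the log2 scale (adjusted p = 0.106 in limma and 0.0157 in DESeq2), but 89.1% of its 31-base words also occur in other genes, mostly in Bcl2a1a (74.0%), so that its reads cannot be assigned with certainty. Its copy Bcl2a1b, with 88.8% shared words, had a log2 fold change of -0.10. Cd83, a surface protein of activated MPs and dendritic cells, was at 1429 to 1485 in Control and 1163 to 1301 in Cripto KO samples (log2 fold change 0.24).

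**Figure D5:**
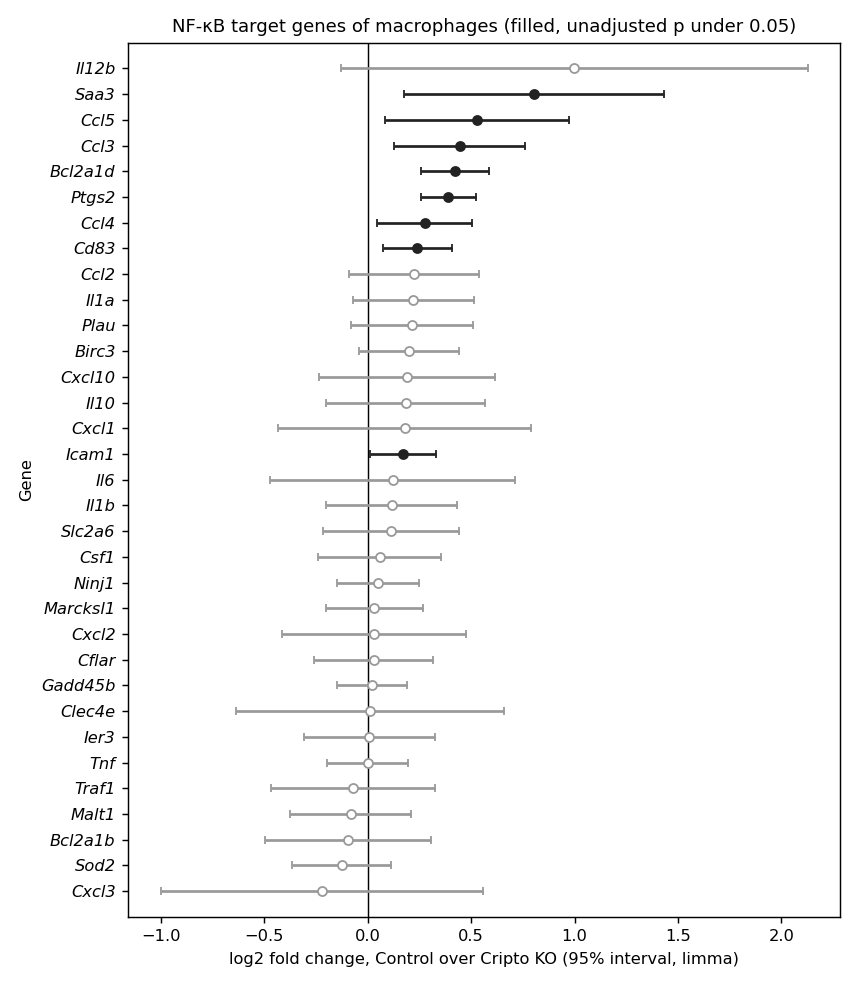
Log2 fold change of Control over Cripto KO (points) with 95% intervals from limma (bars) for 33 NF-κB target genes of macrophages, in order of size, filled where the unadjusted p was under 0.05. The 8 filled genes are all above 0, while Tnf (-0.0013), Il1b (0.11) and Il6 (0.12) have intervals that include 0.

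Control 1 held the highest value in 22 of 33 targets (66.7%) and the lowest in 0. It was highest in 21.3% and lowest in 19.6% of the 11960 genes with a mean of at least 1. The lowest value was in Control 2 in 10 targets (30.3%), in Cripto KO 1 in 8 (24.2%), in Cripto KO 3 in 7 (21.2%) and in Cripto KO 2 in 6 (18.2%). Over the 11960 genes these shares were 16.5%, 21.0%, 15.0% and 14.2%. Whether targets and subunits share an order of the samples was not tested. Without Control 1, 9 targets passed an unadjusted p under 0.05, of which 7 were higher in Control and 2 in Cripto KO samples. Without Cripto KO 1, 11 passed, of which 10 were higher in Control and 1 in Cripto KO samples, and without Control 2 the number was 7, all higher in Control. The 12 immediate-early genes, which respond to the dissociation of tissue (here 75 minutes at 37 °C), had their highest value in Cripto KO 1 in 6 of 12, where 17.6% of the 11960 genes did, and in Control 1 in 2. Among these, 1 gene was higher in Control (Atf3, a stress-induced repressor, log2 fold change 0.24) and 1 in Cripto KO samples (Btg2, an antiproliferative gene, -0.25) at an unadjusted p under 0.05, and the median was 0.03. Together they are 16.7% of the list, against 8.59% of all genes. The 2 calls became 0 without Control 3 and 1 without Cripto KO 1 or Cripto KO 3. Egr1, an early response transcription factor, had a log2 fold change of 0.22 with an interval of -0.04 to 0.48.

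Markers of other cells were measured in the same samples. All 6 fibroblast markers were lower in Control, with summed normalized values of 459 to 481 in Control and 540 to 591 in Cripto KO samples. Of these, 5 passed an unadjusted p under 0.05, and 3 did without Control 1, Cripto KO 1 or Cripto KO 3. Over all genes 8.59% passed at that threshold. Of 6 skeletal muscle markers, 4 were higher in Control at that threshold, with overlapping sums of 30.5 to 66.1 and 15.2 to 46.2. Control 1 was highest in 4 of these 6, and 1 passed without it, 1 without Cripto KO 2 and 2 without Cripto KO 3, while DESeq2 gave 1 and edgeR 2. The groups also overlapped for the remaining lists: endothelial markers summed to 39.1 to 47.3 and 37.1 to 43.8, dendritic cell markers to 14.6 to 19.6 and 16.7 to 19.5, and the Ly6C genes to 5.55 to 8.32 and 6.94 to 8.69. After adjustment 0 genes of these marker lists passed with limma, edgeR or DESeq2. The part of these cells in the values of Nfkbiz and of the target genes was not tested.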

How the data were processed

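The authors trimmed reads with cutadapt 1.7.1 (reads under 30 bases were discarded), quantified them on the mouse transcriptome (GRCm38, Ensembl release 91) with RSEM 1.2.20 and normalized them with limma. The signal the authors deposited adds 0.5 to the reads of a gene and scales them to 1000000 of a normalized library, for 13008 genes without a 0. Whole reads were recovered from it for 100.0% of 78048 values within 0.01, with totals of 12688968 to 15659847 per sample. At 3 reads a value is 0.222 to 0.286, and this floor covers counting error only. RSEM can split reads of near-identical copies.

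Log2 values without a pseudocount were tested with limma 3.58.1 in R 4.3.3 (lmFit, eBayes with a trend), 3 Control against 3 Cripto KO samples, over all genes with Benjamini-Hochberg adjustment and a threshold of 0.05. The edgeR 4.0.16 quasi-likelihood test on the recovered reads called 17 genes, as did limma, and DESeq2 1.42.0 was a further alternative. All tests were two-sided. Self-tests of the fits were also run on simulated counts. The genes described and the gene lists were chosen with earlier results of these data known. Named are the 10 genes, 9 fixed pathway genes and the 3 genes with the smallest p of each pathway list, and Bcl2a1b, Il6, Xist, Lyz2 and the markers near 0 were named after their values were seen. Alternatives were 2 pseudocounts, a mean of at least 1, median centring, quantile normalization, eBayes without a trend or robust, voom weights, a replicate block, and each of the 6 samples left out in turn. Counts of target genes under these were added after seeing the data. Positions, transcript lengths and 31-base words were taken from GENCODE release M21, promoters from RefSeq (GRCm38.p6). The deleted gene was not analysed here.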

Additional observations from a re-analysis of the deposited data

How the results depend on the processing

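Of the 10 NF-κB genes, 0 had an adjusted p-value under 0.05 and 1 (Nfkbiz) an unadjusted one in each of the 17 alternatives. Nfkbiz kept its direction in all of them, with a log2 fold change of 0.26 to 0.35 and adjusted p-values of 0.127 (DESeq2) to 0.824 (without Cripto KO 3). Over all genes, the 17 called by limma became 71 with DESeq2, 31 with the robust option, 9 with voom weights, 6 with quantile normalization, 5 without a variance trend and 2 with the replicate block. Same-numbered samples did not deviate together (correlations -0.21, -0.0052 and -2.46e-05). With 3 samples a group these values cannot show whether the samples were prepared in pairs. The block changed no call among the 10 genes. Leaving out 1 sample gave 5 to 31 called genes, with 31 without Control 1, 10 without Cripto KO 1, 7 without Control 3 or Cripto KO 3 and 5 without Cripto KO 2.

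Small log2 fold changes turned sign, and the cause was not tested. Quantile normalization gave -0.013 for Nfkbie. Leaving out 1 sample gave -0.051 to 0.22 for Nfkb1, -0.0095 to 0.20 for Rel, -0.067 to 0.18 for Nfkbie, -0.036 to 0.24 for Bcl3 and -0.13 to 0.045 for Nfkbia. Nfkb1 and Bcl3 turned without Control 1 or Cripto KO 1, Rel without Control 1, Nfkbie without either of these or Control 3, and Nfkbia without Control 2 or Cripto KO 3. The median of the 10 genes ranged from -0.02 to 0.19. The number of target genes at an unadjusted p under 0.05 and higher in Control was 6 to 10. The 4 calls of the IKK list became 2 with DESeq2 or quantile normalization, 1 with the replicate block and 0 without a variance trend. The 2 receptor calls became 1 with DESeq2 or the replicate block, and 3 with edgeR, quantile normalization or no variance trend. The 1 call of the further inhibitors became 2 with the robust option and 0 without a variance trend. The 2 immediate-early calls became 1 with the replicate block or no variance trend. The 5 fibroblast calls became 3 with DESeq2. With 3 samples a group, the intervals of 9 genes include both directions.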
